A study of Mus musculus with 14 samples.

Results

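Apobec1 and 4 other genes of RNA editing and of the APOBEC and ADAR deaminase families, Rbm47, Apobec3, Adar and Adarb1, were followed across sorted mouse lymph-node dendritic cells (DCs). They are 5 of the 23420 gene symbols in the count table, and all 5 passed the filter on low counts that left 14217 genes for testing. Apobec1 was chosen by measured values of these libraries: it had the smallest p of the genes that were lower in biotin-positive than in biotin-negative DCs, and the others were added by function. The values of that comparison are therefore given for these genes as a description, with no test.

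The study labelled contacts between T cells and DCs. A sortase A enzyme fused to CD40 ligand on the T cell passes a biotin-carrying LPETG peptide to CD40 bearing a glycine tag (G5) on the DC it touches, so biotin marks DCs that were in contact. In the biotin-positive and biotin-negative groups (6 libraries each), Cd40G5/G5 recipients, whose genotype is given as G5-Cd40+/+, received 500000 Cd40G5/G5 DCs per footpad, loaded with the peptide OVA323-339. After 18 h, 300000 CD4+ T cells of the genotype CD40lgSrtA/Y CD4-Cre OT-II were injected intravenously; CD4-Cre is active in T cells, and OT-II T cells recognise the OVA peptide. Biotin-LPETG was given at 300 nmol per footpad 46 h after the T cells, and popliteal lymph nodes were taken 48 h after them. The third group (2 libraries) came from Cd40-/- mice, in which both the transferred DCs and the OT-II T cells were wild-type, so that genotype and transferred cells changed together; its labels name no biotin gate, and it is called Cd40-null below. All mice were C57BL/6, and all libraries came from 150 endogenous MHC-IIhi CD11c+ CD11b+ XCR1- DCs, not from the transferred cells. The labels do not give ages and do not say that libraries came from separate mice, and the spread behind each p-value, being that between these libraries, may be technical.

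Library totals ranged from 14518099 to 33260704 counts. The ribosomal RNA gene Rn45s took 15.05 to 19.5% of counts in biotin-positive, 19.6 to 21.5% in biotin-negative and 18.3 to 20.7% in Cd40-null libraries. Genes with a count numbered 13090 to 13455 in biotin-positive, 14225 to 15742 in biotin-negative and 13113 to 13596 in Cd40-null libraries. All 10 conventional DC genes of a marker list had counts in every library, but their levels differed between the biotin groups: edgeR called 5 lower and 1 higher in biotin-positive DCs. Those called are 60% of the list, beside 7.75% of all genes tested. Levels are given in CPM (counts scaled to a common library total), in the order biotin-positive, biotin-negative and Cd40-null. The MHC class II genes H2-Aa and H2-Ab1 averaged 442, 1776 and 951 and 230, 1245 and 498 CPM, Itgax (CD11c) 55.5, 139 and 99.6 CPM, and Fscn1, an actin bundler of mature DCs, 7172, 3185 and 3631 CPM. Xcr1, which the sort selected against, averaged 2.00, 3.09 and 2.15 CPM. Levels are CPM scaled with TMM factors, and they compare 1 gene across libraries unless a value per kilobase is named.

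RNA editing changes bases in a transcript after it has been made. APOBEC1 deaminates cytidine to uridine and needs an RNA-binding partner, RBM47 or A1CF, to find its sites; in intestine it edits the apolipoprotein B transcript, and in macrophages and microglia many other transcripts. ADAR and ADARB1 deaminate adenosine to inosine in double-stranded RNA, and ADAR keeps self RNA from being read as foreign by the sensor MDA5. APOBEC3 belongs to the APOBEC family but is known for restricting retroviruses through deamination of DNA and by other means. Gene counts measure transcript levels; none of the values below is a level of editing.

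Apobec1 lies on chr6:122577792-122602444 (GRCm38, minus strand), Rbm47 on chr5:66016549-66173118 (minus), Apobec3 on chr15:79891659-79915906 (plus), Adar on chr3:89715022-89753446 (plus) and Adarb1 on chr10:77290726-77418270 (minus). For 3 of the 5 genes 1 promoter window each is shown, from RefSeq (GRCm38.p6, 250 bases before to 50 after a start). They are printed here because Apobec1 was lower together with interferon-response genes in the biotin-positive libraries, and Apobec3 and Adar are known interferon-responsive genes. The windows show where an interferon response core is found. Of the 2 Apobec3 and 3 Adar windows, the 1 with a match is printed. Whether interferon has a part in the Apobec1 difference was not tested. The Apobec1 window is chr6:122602395-122602694 (minus strand), the Apobec3 window chr15:79892158-79892457 (plus) and the Adar window chr3:89730468-89730767 (plus). Capitals mark matches to a short interferon core on either strand: GAAA, any 2 bases, then GAA, with one more A where it follows.
Apobec1: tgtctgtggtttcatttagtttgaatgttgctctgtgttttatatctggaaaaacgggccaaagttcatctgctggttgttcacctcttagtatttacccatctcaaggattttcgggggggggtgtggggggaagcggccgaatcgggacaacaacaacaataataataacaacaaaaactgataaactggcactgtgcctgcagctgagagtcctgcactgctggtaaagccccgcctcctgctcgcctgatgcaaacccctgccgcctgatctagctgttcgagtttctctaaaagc
Apobec3: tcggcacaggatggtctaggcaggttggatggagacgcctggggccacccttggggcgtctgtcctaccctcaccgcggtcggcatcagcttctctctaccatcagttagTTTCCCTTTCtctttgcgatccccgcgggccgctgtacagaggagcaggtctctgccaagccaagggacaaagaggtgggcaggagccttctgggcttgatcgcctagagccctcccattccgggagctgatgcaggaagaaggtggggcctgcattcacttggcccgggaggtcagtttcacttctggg
Adar: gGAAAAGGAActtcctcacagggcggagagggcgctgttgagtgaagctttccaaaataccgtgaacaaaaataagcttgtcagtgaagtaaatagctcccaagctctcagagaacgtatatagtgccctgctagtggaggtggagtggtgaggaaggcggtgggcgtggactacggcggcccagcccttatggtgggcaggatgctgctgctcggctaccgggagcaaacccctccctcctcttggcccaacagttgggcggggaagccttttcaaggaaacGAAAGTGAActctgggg
The full core searched, GAAA, any 2 bases and GAAA again on both strands, is in 3.44% of the 32851 RefSeq windows of this length. It contains the shorter form, ending in GAA, which was added after the Adar sequence had been seen and is in 8.56% of windows. In the Apobec3 window the full core is present on the minus strand, and in the Adar window only the shorter form is present, at 2 places. Neither form is in the Apobec1 window, the second Apobec3 window, both other Adar windows, or the windows of Rbm47 (3) and Adarb1 (1). Of the 22 type I interferon response genes with a window, 13 (59.1%) hold the full core, beside 3.99% of all 27025 genes with a window. A match is a description of the letters and no evidence of binding, and a missing match says only that these letters are not in these 300 bases.

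Apobec1, chosen for its difference between the biotin groups, was lowest in the biotin-positive libraries. Its CPM in biotin-positive replicates 1 to 6 was 61.3, 33.5, 48.7, 59.8, 58.9 and 43.4. In biotin-negative replicates 1 to 6 it was 200.1, 205, 179, 188, 150.4 and 123, and in Cd40-null replicates 1 and 2 it was 122.9 and 122.6. Every biotin-positive library lay below all libraries of both other groups, whereas the lowest biotin-negative library lay between the 2 Cd40-null libraries. Between the biotin groups the lack of overlap follows from the choice of the gene. Against Cd40-null it rests on 2 libraries and on the biotin-positive values that chose the gene. Nothing is read from either. The share of all genes tested without overlap was not counted. The means were 50.9 ± 11.1 (SD, n = 6), 174 ± 31.9 (SD, n = 6) and 123 ± 0.248 CPM (SD, n = 2), from raw counts of 547 to 5603 per library.

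**Figure D1:**
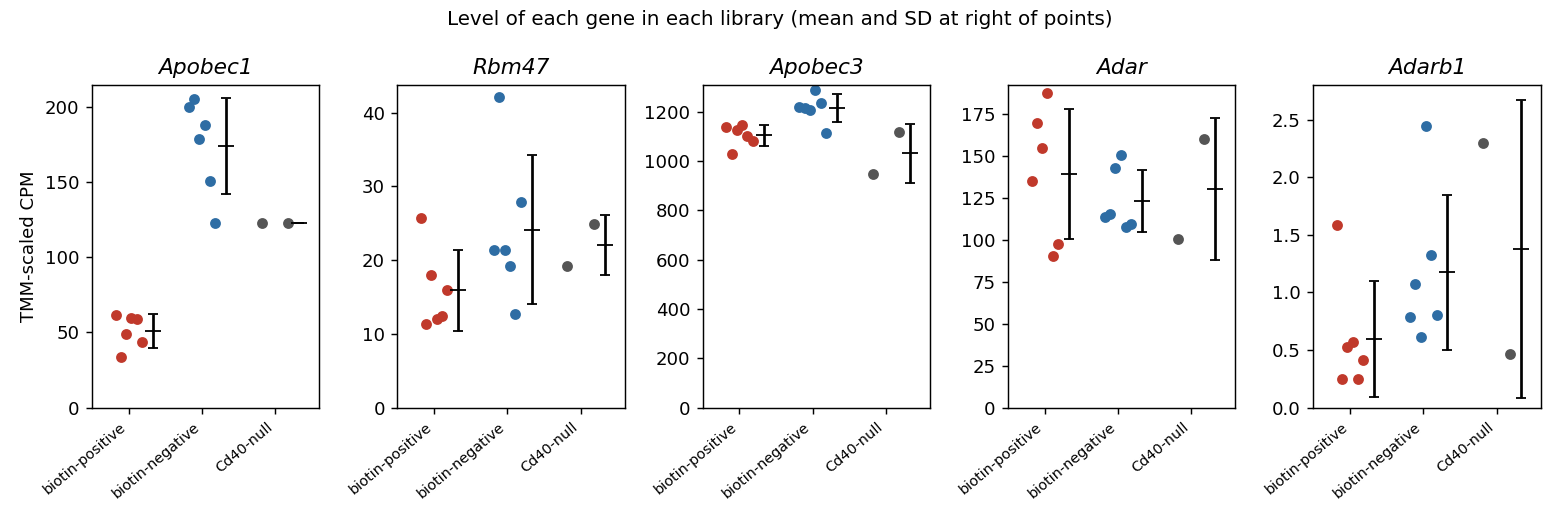
TMM-scaled CPM (linear axis from 0) of the 5 genes in the 3 groups; each point is 1 library, and the bars beside the points are mean and SD (n = 6, 6 and 2). The 6 biotin-positive libraries sit between 33.5 and 61.3 CPM for Apobec1, below all others, and the groups overlap for Rbm47, Apobec3, Adar and Adarb1. Apobec1 was chosen for its difference between the biotin groups, and the other genes were not. Nothing is read from its lack of overlap.

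Between the biotin groups the fitted log2 fold change of Apobec1 was -1.77 (SE 0.16), a level 3.42-fold lower in biotin-positive DCs. This is the contrast that chose it. In this comparison 7.75% of the genes tested were called (4.05% as lower); the call of Apobec1, 1 of the 5 genes, was fixed by the choice, and nothing is read from it. By p, the next lower genes were Mx1, an interferon-induced antiviral GTPase, at log2 -1.92 (SE 0.18), and Tspan3, a tetraspanin, at -0.98, so Apobec1 stood just ahead of these 2 genes on the measure that picked it.

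Against the Cd40-null libraries, which did not enter that choice, Apobec1 was 2.41-fold lower in biotin-positive DCs (log2 -1.27, SE 0.21, 95% interval -1.71 to -0.83, edgeR adjusted p = 0.00333). Of the 5 genes 1 was called, as lower, where 2.27% of all genes tested were called, 1.22% as higher and 1.05% as lower; DESeq2, limma voom and limma on the deposited signal each called the same count. The biotin-positive libraries are those that chose the gene, so this difference is not independent of the choice. The call did not hold without Cd40-null replicate 1 (log2 -1.26, adjusted p = 0.0552), nor with the mean level of a monocyte and macrophage marker list as a covariate (log2 -1.34, SE 0.31, adjusted p = 0.0742).

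Between biotin-negative and Cd40-null DCs the log2 fold change of Apobec1 was 0.51 (SE 0.23, 95% interval 0.02 to 0.99, edgeR adjusted p = 0.519). In that comparison 0 of the 5 genes were called by edgeR, DESeq2, limma voom or limma on the signal, where 0.317% of all genes were called by edgeR (0.274% as higher and 0.0422% as lower); at an unadjusted p under 0.05, edgeR counted 2 of the 5, Apobec1 and Apobec3. The 3 comparisons share libraries, so their values are set side by side and not counted as separate evidence.

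**Figure D2:**
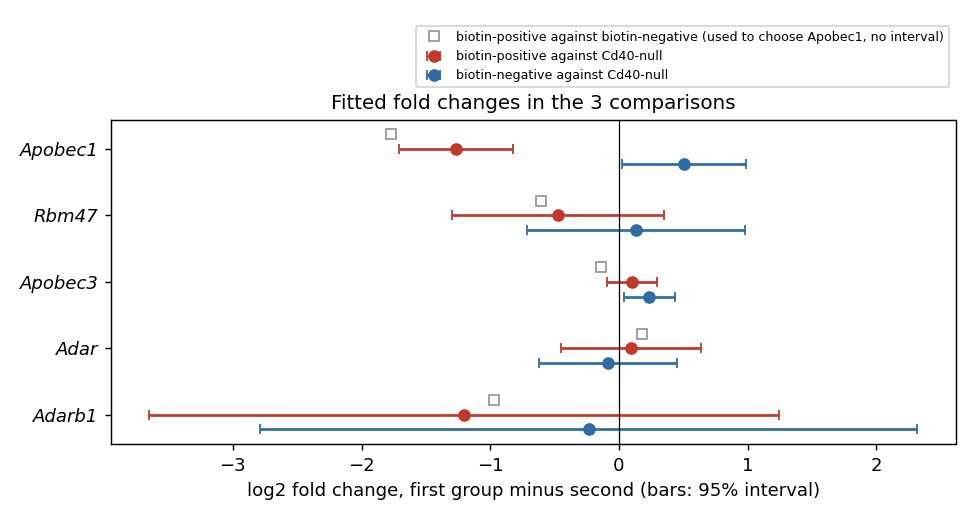
Fitted log2 fold change of each gene in the 3 comparisons, first group minus second; bars are 95% intervals, and the open squares, from the contrast used to choose Apobec1, carry none. The biotin-positive against Cd40-null interval of Apobec1, -1.71 to -0.83, lies away from 0, and those of the other 4 genes in that comparison cover it.

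Rbm47, the RNA-binding cofactor of APOBEC1, was low in all groups and varied widely. Its CPM in biotin-positive replicates 1 to 6 was 25.7, 11.4, 18.01, 11.98, 12.4 and 15.9, and in biotin-negative replicates it was 21.4, 42.2, 21.4, 19.2, 12.7 and 27.8. The Cd40-null libraries had 19.2 and 24.9 CPM. The groups overlapped: the highest biotin-positive library lay above 4 of the biotin-negative ones. The log2 fold change was -0.60 (SE 0.28) between the biotin groups, and against Cd40-null it was -0.47 for biotin-positive DCs (SE 0.39, 95% interval -1.29 to 0.35, edgeR adjusted p = 0.657). For biotin-negative against Cd40-null DCs it was 0.13 (SE 0.40, 95% interval -0.72 to 0.98, edgeR adjusted p = 0.972), and the sign of all 3 Rbm47 values turned with the monocyte and macrophage covariate, to 0.40, 0.14 and -0.26. A1cf, the other known cofactor, had 0, 3 and 0 counts summed over the groups and was not tested.

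Apobec3 was the most abundant member, and in both biotin groups its SD was the smallest relative to its mean. Biotin-positive libraries ranged from 1030 to 1144 CPM (mean 1104 ± 43.0, SD, n = 6), biotin-negative libraries from 1115 to 1289 (mean 1214 ± 56.5, SD, n = 6), and the Cd40-null libraries had 945 and 1116 CPM. The biotin groups overlapped in the range set by biotin-negative replicate 6, and 1 Cd40-null library was the lowest of all 14. The log2 fold change was -0.14 (SE 0.06) between the biotin groups, 0.10 for biotin-positive against Cd40-null DCs (SE 0.09, 95% interval -0.10 to 0.29, edgeR adjusted p = 0.715) and 0.24 for biotin-negative against Cd40-null DCs (SE 0.09, 95% interval 0.04 to 0.43, edgeR adjusted p = 0.445). Without Cd40-null replicate 1 the biotin-positive value against that group was -0.01. Apobec3 shares exon sequence with the unnamed transcript D730005E14Rik on the same strand, so reads there cannot be told apart. It also overlaps Cbx7 on the opposite strand by 100 bases with no exon in common, and the strand used in counting is not given in the sources used here.

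Adar, the interferon-responsive adenosine deaminase, did not separate the groups. Its CPM in biotin-positive replicates 1 to 6 was 135, 169.8, 155, 187, 90.6 and 97.7, in biotin-negative replicates 114, 115, 143, 151, 108 and 109, and in the Cd40-null libraries 101 and 160.5. The biotin-positive libraries held both the highest and the lowest values. The log2 fold change was 0.18 (SE 0.18) between the biotin groups, 0.09 for biotin-positive against Cd40-null DCs (SE 0.26, 95% interval -0.45 to 0.63, edgeR adjusted p = 0.938) and -0.08 for biotin-negative against Cd40-null DCs (SE 0.25, 95% interval -0.62 to 0.45, edgeR adjusted p = 0.972). The intervals reach -0.62 on the low and 0.63 on the high side. With a covariate for genes detected per library the sign turned between the biotin groups (-0.30) and for biotin-negative against Cd40-null DCs (0.38), and without Cd40-null replicate 1 it turned for biotin-positive against Cd40-null DCs (-0.20). Adar shares exon sequence with Chrnb2 on the opposite strand, at 3.27, 1.17 and 0.413 CPM in the 3 groups.

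Adarb1, the second active adenosine deaminase, was near the limit of detection. It had 4 to 57 counts per library, which is 0.245 to 1.58 CPM in biotin-positive, 0.609 to 2.44 in biotin-negative, and 2.29 and 0.465 CPM in Cd40-null libraries. The groups overlapped, and the 2 Cd40-null libraries lay near opposite ends of the range. The log2 fold change was -0.97 (SE 0.88) between the biotin groups, -1.20 for biotin-positive against Cd40-null DCs (SE 1.157, 95% interval -3.65 to 1.24, edgeR adjusted p = 0.726) and -0.24 for biotin-negative against Cd40-null DCs (SE 1.21, 95% interval -2.79 to 2.32, edgeR adjusted p = 0.985). Without Cd40-null replicate 1 both values against that group turned sign, to 0.36 and 1.32. A difference was not detectable at this depth.

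Per kilobase of exon, the order of the mean levels was Apobec3, then Apobec1 and Adar, then Rbm47 and Adarb1, with 1 exchange between groups. In biotin-negative DCs Apobec1 had 76.9 CPM per kilobase against 20.5 for Adar, and in Cd40-null DCs 54.1 against 21.7. In biotin-positive DCs the means were 22.5 for Apobec1 and 23.2 for Adar. The Apobec1 level per kilobase divided by that of Adar within each library was 0.522 to 1.72 in biotin-positive, 2.97 to 4.72 in biotin-negative, and 2.02 and 3.24 in Cd40-null libraries, so the lowest ratio outside the biotin-positive group was above its highest. The ratio holds the Apobec1 values that chose the gene, so this gap is not independent of the choice, and nothing is read from it. In the biotin-positive group these neighbours did not differ beyond their spread, since the ratio lay on both sides of 1. Apobec3 had 371, 408 and 346, Rbm47 2.66, 4.04 and 3.70, and Adarb1 0.0896, 0.176 and 0.207 CPM per kilobase in the 3 groups.

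Transcripts of several other gene groups moved with Apobec1 between the biotin groups, and their part in its difference was not tested. The covariates given below did not overlap between the biotin groups and cannot test it. Of 30 type I interferon response genes, 0 rose (also 0 with DESeq2, limma voom and limma on the signal) and 10 fell in biotin-positive against biotin-negative DCs (edgeR, 15 at an unadjusted p under 0.05), with a median log2 fold change of -0.73 beside -0.03 over all genes tested. The 10 are 33.3% of the list, beside 7.75% of all genes tested, and the 15 are 50%, beside 21.1%. Of the 10, 1 reached the filter's level in fewer than 2 biotin-positive libraries. Among those that fell were Mx1 (116 against 439.8 CPM), Irf7, the transcription factor that amplifies interferon production (log2 -3.16, SE 0.64), and Ifitm3, which blocks viral entry (log2 -2.70, SE 0.36). The mean log2 CPM of the list was 3.34 to 4.81 in biotin-positive, 4.59 to 5.50 in biotin-negative, and 4.82 and 4.92 in Cd40-null libraries, so the biotin groups overlapped. Against Cd40-null DCs, 2 of the 30 fell in biotin-positive DCs, among them Mx1 (log2 -1.98, SE 0.23), and 0 were called for biotin-negative DCs by edgeR, with 4 at an unadjusted p under 0.05 and 1 called by DESeq2 and by limma voom. The 2 are 6.67%, beside 2.27% of all genes tested, and the 4 are 13.3%, beside 9.22%. Biotin-negative replicates 5 and 6, the lowest of their group for Apobec1, were also the lowest of their group on this list. The biotin-positive group did not show this order. Its replicate 5 was lowest on the list (3.34) with Apobec1 at 58.9 CPM. Its replicate 2 was lowest for Apobec1 (33.5 CPM) and second highest on the list (4.12).

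Markers of monocytes and macrophages, cells that share CD11b with the sorted DCs and in which Apobec1 is known to be expressed, also moved with it. Of 24 tested, 0 rose (also 0 with the 3 other tools) and 12 fell in biotin-positive against biotin-negative DCs (edgeR, 18 at an unadjusted p under 0.05). The 12 are 50% of those tested, beside 7.75% of all genes tested, and the 18 are 75%, beside 21.1%. Of the 24, 7 reached the filter's level in fewer than 2 biotin-positive libraries, 4 of the 12 that fell among them, so their direction was set by how they passed the filter. Their summed level was 123 to 275 CPM in biotin-positive, 299 to 1758 in biotin-negative and 358 to 679 CPM in Cd40-null libraries, and 6 to 10, 1 to 4 and 3 to 5 of the 25 markers were at 0 per library. Mrc1, the mannose receptor of macrophages and 1 of those 7 markers, was at 0 in all biotin-positive and both Cd40-null libraries. Its median in biotin-negative libraries was 2.08 CPM, with 1 library at 0. Against Cd40-null DCs 1 of the 24, Lyz1, a lysozyme (log2 -2.90, SE 0.64), fell in biotin-positive DCs by edgeR, with 9 at an unadjusted p under 0.05. The 1 is 4.17%, beside 2.27% of all genes tested, and the 9 are 37.5%, beside 13.8%. DESeq2 called 5 lower and limma voom 2. The fitted log2 values of the 24 in that comparison ran both ways, from -6.75 to 4.77, with a median of -1.20. For biotin-negative DCs edgeR called 0, with 6 at an unadjusted p under 0.05, and DESeq2 3. The mean log2 CPM of the list in biotin-negative replicates 1 to 6 was 1.96, 3.46, 2.93, 3.66, 1.58 and 3.80, beside Apobec1 at 200.1, 205, 179, 188, 150.4 and 123 CPM. Replicate 5 was lowest on the list and second lowest for Apobec1, replicate 2 was high on both, and replicate 6 was highest on the list's mean and lowest for Apobec1. By summed CPM the highest library was replicate 4, at 1758. With the list's mean as a covariate, the log2 fold change of Apobec1 between the biotin groups was -1.88 (SE 0.36), and with genes detected per library it was -2.03 (SE 0.33). The list's mean was -0.11 to 1.05 in biotin-positive, 1.58 to 3.80 in biotin-negative, and 1.67 and 2.27 in Cd40-null libraries. It includes the 7 markers named above. Detected genes did not overlap between the biotin groups either. Neither covariate can be separated from group there, so these fits do not test the list's part in the difference. In bulk libraries, fewer cells of a type and less RNA per cell cannot be told apart.

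Other marker lists differed between the biotin groups as well. Of 9 markers of type 2 conventional DCs (cDC2), the CD11b-expressing subset, 0 rose by any of the 4 tools and 5 fell (edgeR, 6 at an unadjusted p under 0.05). The 5 are 55.6% of the list, beside 7.75% of all genes tested, and the 6 are 66.7%, beside 21.1%. Of the 9, 4 reached the filter's level in fewer than 2 biotin-positive libraries, 1 of the 5 that fell among them, so their direction was set by how they passed the filter. Among the 9 markers Zeb2, a transcription factor of cDC2, had a log2 fold change of -2.41 (SE 0.34), and Sirpa, a surface receptor of that subset, -1.33 (SE 0.23). Itgam, which encodes the CD11b used in the sort, was at -3.76 (SE 0.89). The mean log2 CPM of the list was -0.08 to 0.83 in biotin-positive, 1.55 to 4.33 in biotin-negative, and 1.81 and 2.05 in Cd40-null libraries. The biotin groups did not overlap, but the mean includes the 4 genes whose direction the filter set, so nothing is read from the gap. Of 4 Langerhans cell markers 2 rose, Cd207, the lectin langerin (105 against 27.6 CPM), and Epcam, an adhesion molecule (149 against 38.4 CPM). Of 6 markers of type 1 conventional DCs 1 rose, Irf8, their transcription factor (437 against 191 CPM). Of the rest, 1 of 7 plasmacytoid DC, 1 of 12 T cell, 2 of 4 NK cell and 1 of 2 neutrophil markers fell. These are 14.3, 8.33, 50 and 50% of the tested markers, beside 7.75% of all genes tested. For the Langerhans cell and type 1 lists the share was 50 and 16.7%. Of 10 NK cell markers listed, 4 were tested. Of these 4, 2 reached the filter's level in fewer than 2 biotin-positive libraries, and 0 of the 2 that fell were among them. Ccl5 averaged 1344 against 2325 CPM and Klrd1 5.89 against 36.9 CPM. In the T cell list Il7r was the most abundant, at 282 against 485 CPM. Of 8 B cell markers 0 were called by edgeR or the 3 other tools, with 0 at an unadjusted p under 0.05. The T cell list leaned higher in biotin-positive DCs, with a median log2 fold change of 1.49 and a range from -1.68 to 5.70. At an unadjusted p under 0.05 edgeR counted 4 of the 12, and DESeq2 called 1 higher and 1 lower. Many of these markers were low, such as Cd3g at 1.45 against 0.352 CPM.

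**Figure D3:**
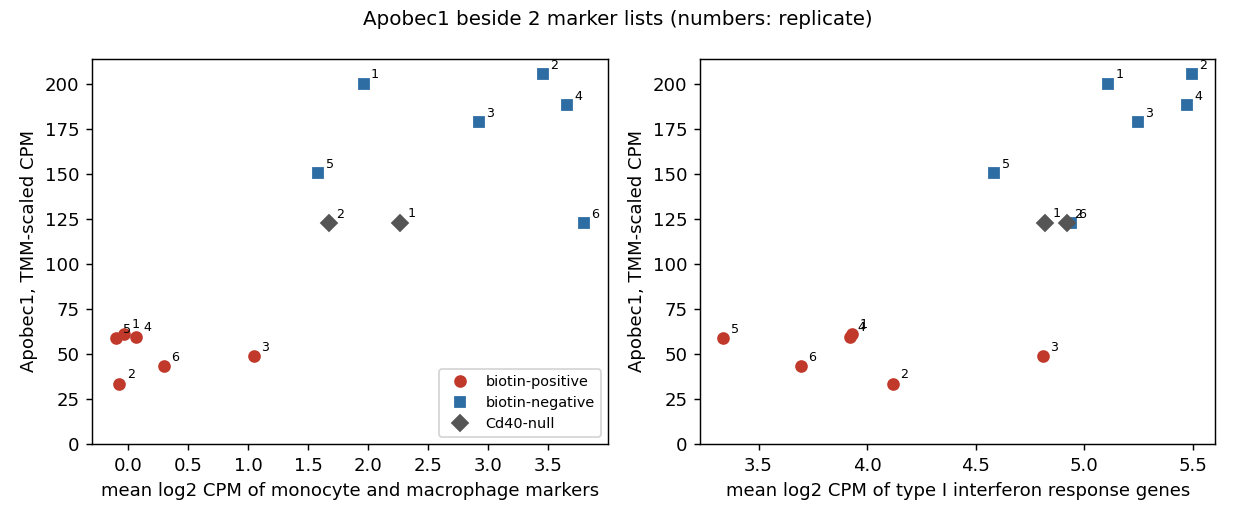
Apobec1 in TMM-scaled CPM (vertical axis) against the mean log2 CPM of the monocyte and macrophage markers (left) and of the type I interferon response genes (right); each point is 1 library, coloured by group and numbered by replicate. The biotin-positive libraries lie lowest on the vertical axis, and within the biotin-negative group Apobec1 follows the monocyte and macrophage list in some libraries (replicate 5 at 1.58 and 150.4 CPM, replicate 2 at 3.46 and 205 CPM) and not in replicate 6 (3.80 and 123 CPM).

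The genes whose levels followed Apobec1 most closely over the 14 libraries were Dpp4, the dipeptidase CD26 (Pearson r = 0.960), Tspan3 (0.959), Fabp4, a fatty acid binding protein (0.956), Pyhin1, of the interferon-inducible HIN-200 family (0.954), Klri2, a killer lectin-like receptor (0.953), and Abcd2, a peroxisomal fatty acid transporter (0.949). This is a description over 8895 genes at a mean of at least 5 CPM, and the points share their library and its depth. These r values also hold the difference between the biotin groups that chose Apobec1. Tspan3 ranked 3 among the lower genes on that measure, so nothing is read from the size of r. The median r over those genes was -0.03. Dpp4 averaged 73.1, 253 and 236 CPM, and Fabp4 3.31, 53.9 and 32.8 CPM in the 3 groups, both lowest in biotin-positive DCs. Once each group's mean was subtracted, the closest genes were Fundc2 (0.895), Def6 (0.893), Zfp386 (0.888), Ramp1 (0.888), Tnrc6a, a partner of Argonaute proteins (0.879), and Tmem208 (0.878). Dpp4 then ranked 10 (0.835). Of the other members, Rbm47 ranked 919 (r = 0.572), Apobec3 984 (r = 0.557) and Adar 5696 (r = -0.19); within groups the values were 0.287, 0.594 and 0.00121.

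Among 26 cofactors and relatives of the editing enzymes, 18 were tested, and 0 rose and 2 fell between the biotin groups (edgeR and each of the 3 other tools), with 4 at an unadjusted p under 0.05 and a median log2 fold change of -0.01. The 4 are 22.2% of the list, beside 21.1% of all genes tested, and the 2 called are 11.1%, beside 7.75%. Celf2, an RNA-binding protein reported to bind APOBEC1, was at 141 ± 11.6 CPM in biotin-positive, 190.4 ± 19.1 in biotin-negative (SD, n = 6 each) and 204 ± 13.5 CPM in Cd40-null libraries (SD, n = 2). It fell in biotin-positive DCs against both other groups (log2 -0.43, SE 0.09, edgeR adjusted p = 0.0074 and log2 -0.53, SE 0.13, edgeR adjusted p = 0.0367). Zfr, a zinc finger protein that binds double-stranded RNA, fell against biotin-negative DCs (log2 -0.44, SE 0.13, edgeR adjusted p = 0.0397). Syncrip, known to bind APOBEC1, had a log2 fold change of -0.36 (edgeR adjusted p = 0.106). Against Cd40-null DCs, 0 of the 18 rose and 1, Celf2, fell in biotin-positive DCs, with a median of -0.12 beside 0.04 over all genes. The 1 called is 5.56% of those tested, beside 2.27% of all genes tested. For biotin-negative against Cd40-null DCs 0 were called by edgeR, DESeq2, limma voom or limma on the signal, with 1 at an unadjusted p under 0.05 in edgeR. Relatives of tissue-restricted expression, among them Apobec2, Apobec4 and Adarb2, did not pass the filter.

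Of 17 tested genes that sense double-stranded RNA, the substrate of ADAR, 0 rose and 2 fell between the biotin groups by edgeR (0 rose with the 3 other tools, and 3 fell with DESeq2; 4 at an unadjusted p under 0.05), with a median log2 fold change of -0.24. The 4 are 23.5% of the list, close to the 21.1% of all genes tested, and the 2 called by edgeR are 11.8%, beside 7.75%. Zbp1, a sensor of Z-form nucleic acid that triggers cell death, was at 17.1 ± 5.10 against 40.4 ± 13.2 CPM (SD, n = 6 each; log2 -1.24, SE 0.26, edgeR adjusted p = 0.00666). Oasl1, of the oligoadenylate synthetase family, was at 1.68 ± 1.75 against 15.6 ± 8.37 CPM (SD, n = 6 each; log2 -3.23, SE 0.79, edgeR adjusted p = 0.0169). Both also stand in the interferon list. Ifih1, which encodes MDA5, was at log2 -0.00, and Eif2ak2, the kinase PKR, at -0.16. Against Cd40-null DCs 0 of 17 were called by edgeR for biotin-positive and for biotin-negative DCs, with 1 each at an unadjusted p under 0.05; DESeq2, limma voom and limma on the signal called 0 as well.

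Of 17 transcripts listed as reported APOBEC1 substrates, 14 were tested, and 1 rose and 2 fell between the biotin groups (1 fell by limma voom and by limma on the signal). At an unadjusted p under 0.05 edgeR counted 7, or 50% of those tested, beside 21.1% of all genes tested. Those called are 21.4%, beside 7.75%, and they went both ways. Of the 14, 1 reached the filter's level in fewer than 2 biotin-positive libraries. It is 1 of the 2 that fell, and its direction was set by how it passed the filter. Both shares count it, so nothing is read from their size. Cmtm6, which keeps PD-L1 at the cell surface, rose (547 ± 93.9 against 297 ± 53.5 CPM, SD, n = 6 each; log2 0.88, SE 0.14, edgeR adjusted p = 0.00072). Cybb, the catalytic subunit of the phagocyte NADPH oxidase, fell (26.0 ± 14.1 against 106 ± 18.7 CPM, SD, n = 6 each; log2 -2.03, SE 0.27, edgeR adjusted p = 0.00017). Cd36, a scavenger receptor of macrophages, was the other gene called lower by edgeR and DESeq2; with 2 counts summed over the biotin-positive libraries against 551 over the biotin-negative ones, it passed the filter through the biotin-negative group alone. B2m, the light chain of MHC class I and a known substrate in macrophages, had a log2 fold change of 0.06 (6575 ± 892 against 6308 ± 843 CPM, SD, n = 6 each; edgeR adjusted p = 0.823). The list's median was -0.17. Against Cd40-null DCs 0 of the 14 were called by edgeR for biotin-positive DCs, with 0 at an unadjusted p under 0.05 and 1 by limma voom; for biotin-negative DCs 0 were called, with 4 at an unadjusted p under 0.05, 2 by DESeq2 and 1 by limma voom.

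**Figure D4:**
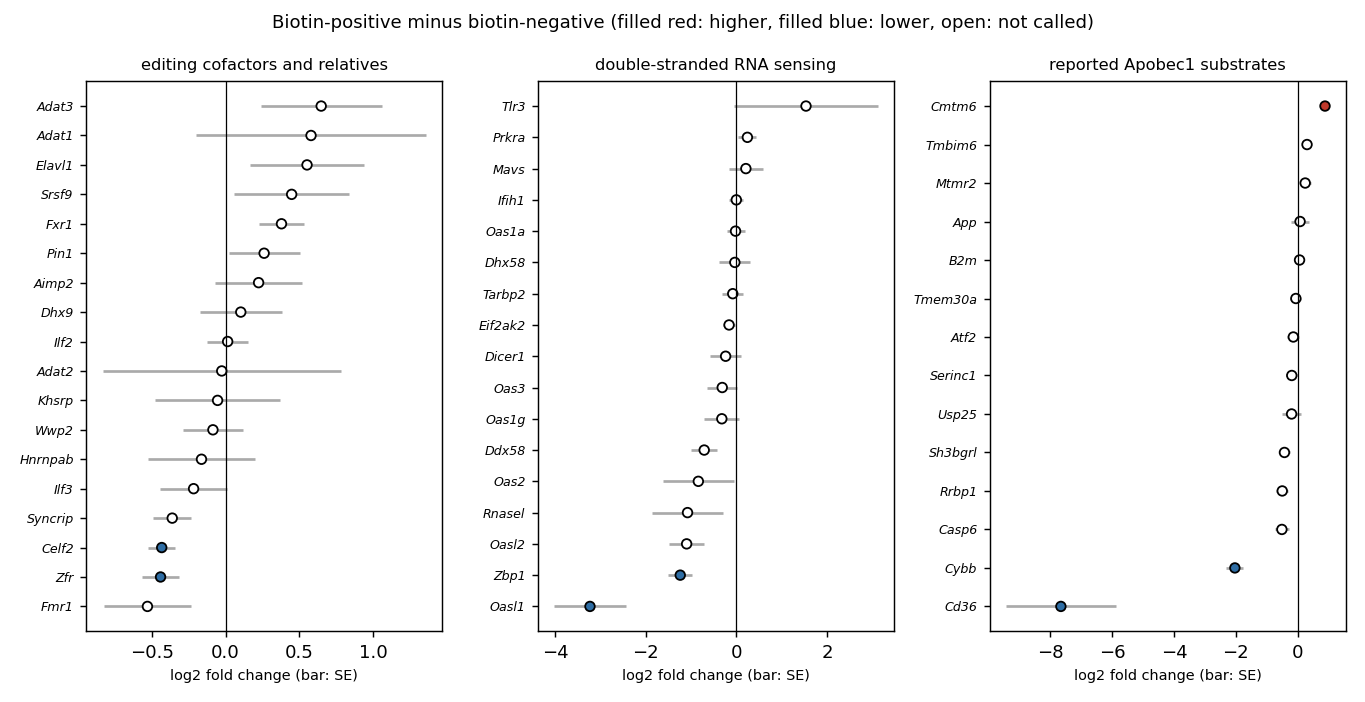
Fitted log2 fold change, biotin-positive minus biotin-negative, of the tested genes of 3 lists; each point is 1 gene with its SE, filled where called (red higher, blue lower) and open where not. Filled points are Celf2 and Zfr, Zbp1 and Oasl1, and Cmtm6, Cybb and Cd36, whose fitted value rests on 2 counts in the biotin-positive group.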

How the data were processed

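Polyadenylated RNA of 14 libraries of 150 sorted cells was measured by Smart-seq2 with paired 38 bp reads, per the labels' protocols. Per the submitters' processing notes, mm10 was the build and the tools named are RSEM 1.2.8, Bowtie2 2.1.0 and DESeq2 1.16.0; their roles and the annotation are not given in the sources used here. The authors deposited RSEM expected counts for 23420 symbols and a normalized signal for 10321 genes, in which 4 of the 5 members are found (not Adarb1); from the values, 1 scaling factor per library separates it from the counts.

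The expected counts, rounded to whole numbers, were tested two-sided in R 4.3.3 with edgeR 4.0.16 (glmQLFit with robust dispersion, glmQLFTest, TMM factors, filterByExpr at a min.count of 10) in 1 fit of all 14 libraries with a group factor. Genes under a Benjamini-Hochberg adjusted p of 0.05 over all 14217 genes were called. SEs are |log2 fold change| over the root of F; log2 CPM used a prior count of 2. DESeq2 1.42.0, limma 3.58.1 (voom with quality weights, and log2 of the deposited signal plus a pseudocount of 1), other filters and scalings, covariates, the replicate block and each replicate left out were alternatives. Lengths are exon unions and positions those of GENCODE on GRCm38, the same assembly as mm10. The pipeline was tested on simulated data.

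The members and lists were chosen with earlier results of these data known. Named genes are the members, the 6 genes most like Apobec1 in each of 2 ways, the 3 most like each of Rbm47, Apobec3 and Adar, up to 4 genes with the smallest p per list, and neighbours of Apobec1; some items are not reported here. Syncrip, Ifih1, Eif2ak2, B2m, Itgax, H2-Ab1, Xcr1 and Mrc1 were added after their values were seen.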

Additional observations from a re-analysis of the deposited data

Results flagged for a closer look

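Adarb1 stood out in 1 biotin-positive library: replicate 1 had 1.58 CPM, the next highest of its group 0.567 CPM, and the gap was 0.759 of the group's range. Without that library the log2 fold change against biotin-negative DCs was -1.54 (SE 0.93), beside -0.97 with it. It was the 1 flag among 10 sets examined (5 genes in the 2 groups of 6 libraries), where chance flags about 1 in 20.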

How the results depend on the processing

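The log2 fold change of Apobec1 between the biotin groups stayed between -2.03 and -1.68 over all alternatives run. Against Cd40-null it was -1.34 with the monocyte and macrophage covariate (adjusted p = 0.0742) and -1.33 to -1.17 with 1 replicate left out (adjusted p = 0.00398 to 0.0552, the highest without Cd40-null replicate 1); the cause was not tested. Its Cd40-null level was 124 CPM with library totals only.

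The detected-gene covariate gave Apobec3 -0.26 and Adar -0.30 between the biotin groups, and Adar 0.38 for biotin-negative against Cd40-null DCs. The monocyte and macrophage covariate turned Rbm47 to 0.40, 0.14 and -0.26 in the 3 comparisons. With 1 replicate left out, values against Cd40-null for biotin-positive DCs ran from -0.20 to 0.47 for Adar, from -0.014 to 0.22 for Apobec3 and from -1.94 to 0.36 for Adarb1. For biotin-negative DCs they ran from -0.11 to 0.33 for Rbm47, from -0.38 to 0.29 for Adar and from -0.97 to 1.32 for Adarb1. None of the values against Cd40-null in this paragraph passed the threshold.

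Same-numbered libraries of the biotin groups did not deviate together (6 pairs, r from -0.0226 to 0.0132, 1 of 6 closest to its own number), so no sign of pairing by number was seen. Over all pairs of a biotin-positive and a biotin-negative library r ran from -0.0496 to 0.0381, so the check cannot exclude pairing. With the replicate block Adarb1 was 0.36 for biotin-negative against Cd40-null DCs, Apobec1 was -1.21 for biotin-positive against Cd40-null DCs (adjusted p = 0.0465), and 129 and 19 genes were called in those 2 comparisons.

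Genes called between the biotin groups numbered 1102, but 11 with the detected-gene and 47 with the monocyte and macrophage covariate, neither of which can be separated from group. For biotin-positive against Cd40-null they numbered 323 (174 higher, 149 lower), 802 with DESeq2 (516 higher, 286 lower), 606 with limma voom (261 higher, 345 lower), 77 with the monocyte and macrophage covariate and 78 to 346 with 1 replicate left out (78 without Cd40-null replicate 1, 95 without replicate 2); limma on the signal gave 290 higher and 157 lower, and library totals 155 and 185. For biotin-negative against Cd40-null they numbered 45, 272 with DESeq2, 81 with limma on the signal, 29 with only the 2 groups, 6 with the detected-gene covariate and 12 to 48 with 1 replicate left out (21 without Cd40-null replicate 1, 12 without replicate 2). Adarb1 had no value under the stricter filter or in the signal table. With 2 Cd40-null libraries, intervals against that group are wide, and at 4 to 57 counts Adarb1 is limited by depth.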

Other observations

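Gdf3, a growth factor of the TGF-beta family that lies near Apobec1 on chromosome 6, had 19, 40 and 12 counts summed over biotin-positive, biotin-negative and Cd40-null libraries and did not pass the filter on low counts. Over the 14 libraries, the genes most like Rbm47 were Armc6 (Pearson r = 0.809), Slc43a2 (0.801) and Fyb (0.799), those most like Apobec3 were Pikfyve (0.839), Zscan26 (0.835) and Tnfrsf10b (0.833), and those most like Adar were Klhl26 (0.909), Pskh1 (0.903) and Zfp296 (0.823). These are descriptions over points that share library and depth.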
